A study of Mus musculus with 15 samples.

Results

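The mouse induced pluripotent stem (iPS) cell line IP14D-1 was compared with mouse embryonic fibroblasts (MEF), which the submitters describe as the cells of origin of the iPS lines. The comparison took all arrays titled with these 2 names, 3 IP14D-1 arrays and 3 MEF arrays, out of 15 arrays in the study. Both groups had the B6D2F1 genetic background, a cross of C57BL/6 and DBA/2 mice. The IP14D-1 cells grew on a layer of MEF whose division had been stopped with mitomycin C, in medium with leukaemia inhibitory factor (LIF) and with either serum or a serum replacement, the labels not saying which. No separate culture conditions were given for the MEF, so growth medium, feeder cells and cell type cannot be told apart in this comparison. The factors and vectors used for reprogramming were not given either. The remaining groups, with 3 arrays each, were the iPS line IP20D-3 and the embryonic stem (ES) line CL11, both B6D2F1, and the iPS line IP14D-101 of C57x129S2 background, all grown in the same way. IP14D-1 is a single cell line, and although the replicates were described as biological, p-values measure the spread between these samples only.

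Reprogramming turns a differentiated cell into one that can form the tissues of an embryo, usually by forced expression of transcription factors such as Pou5f1, Sox2, Klf4 and Myc. Fibroblasts are migratory mesenchymal cells that build collagen-rich matrix and pull on it with actin stress fibres. Pluripotent stem cells grow as compact epithelial colonies joined by E-cadherin, divide rapidly with a short gap phase before DNA synthesis, and depend on a network of transcription factors that maintain one another.

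Total RNA was hybridised to Affymetrix arrays, and the deposited signals were scaled to a common trimmed mean. Differences are log2 differences, IP14D-1 minus MEF, with standard errors and Benjamini-Hochberg adjusted p-values from limma, and a gene was called at an adjusted p below 0.05. A group whose mean lay below a signal of 2087, the 95th percentile of 39 olfactory receptor genes, was taken as below background, and a difference from it is given as a bound. The arrays correlated at 0.932 to 0.938 within IP14D-1, at 0.940 to 0.942 within MEF and at 0.805 to 0.813 between the groups (Pearson, log2 signal over all non-control probe sets). The number of arrays limits the precision, and the median standard deviation of a gene above background was 0.14 log2 in each group. The 3' to 5' signal ratio of the actin control probe sets, a measure of RNA integrity and labelling, was 1.37 ± 0.04 in IP14D-1 and 1.16 ± 0.02 in MEF (SD, n = 3 each). The same ratio of the Gapdh control probe sets differed less, at 0.850 ± 0.004 in IP14D-1 and 0.822 ± 0.005 in MEF. Both ratios moved with the groups, and their part in the results was not tested. Markers were set against the labels. In IP14D-1 15 of 15 pluripotent stem cell markers were above background, against 2 in MEF, while 16 of 24 fibroblast markers were above it in IP14D-1 and 24 in MEF.

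Reprogrammed cells and fibroblasts differed in about as many genes as not. Of 18193 genes, each represented by its brightest probe set, 9386 were called (51.6%), with 5331 higher (29.3%) and 4055 lower (22.3%) in IP14D-1. The signals of the groups did not overlap for 11033 genes (60.6%). IP14D-1 lay below background for 622 of the genes that fell, and MEF for 1066 of the genes that rose. Both groups lay below background for 5482 genes, of which 382 were called, and no fold is given for these. The median difference over all genes was 0.13 log2, and 0.00 when genes with 1 group below background were set at their bound and genes with both below at no difference (the value "with bounds").

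**Figure D1:**
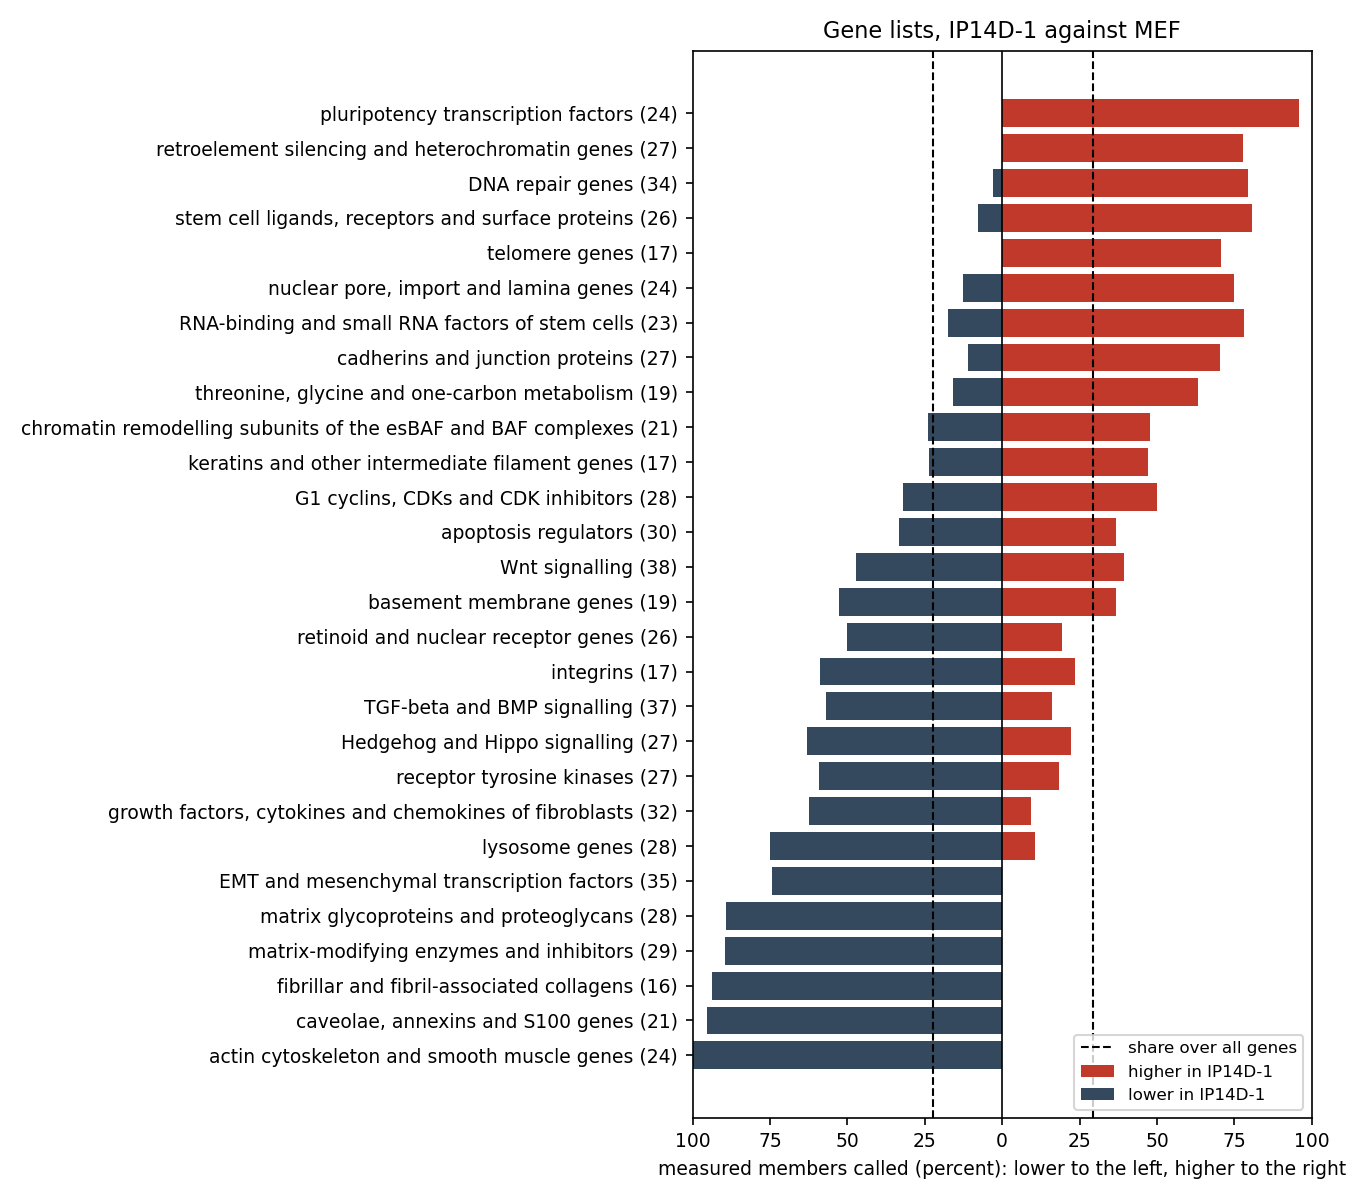
Share of measured genes called higher and lower in IP14D-1 than in MEF (percent of the list, horizontal axis) for each gene list (vertical axis), with the shares over all 18193 genes, 29.3% higher and 22.3% lower. All 24 actin cytoskeleton genes were lower, 23 of 24 pluripotency transcription factors were higher, and the Wnt, apoptosis and BAF lists were divided.

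Pluripotency transcription factors had the highest median among the lists of genes grouped by role. The list had 23 of 24 measured genes higher in IP14D-1 than in MEF, 0 lower and 1 not called, with a median of 6.34 log2, and 4.87 with bounds. Pou5f1, the POU-domain factor at the centre of the network, had signals of 420103, 425398 and 466394 in IP14D-1, against 463, 1197 and 431 in MEF. Sox2, its partner on DNA, gave 375650, 420656 and 381054 in IP14D-1, against 604, 391 and 444 in MEF. Nanog, the homeodomain factor that lets ES cells self-renew without LIF, read 275757, 282700 and 266727 in IP14D-1, against 773, 605 and 1090 in MEF. For all 3 genes every IP14D-1 array was far above every MEF array, and MEF was below background. Sall4, a zinc-finger regulator of Pou5f1, was higher in IP14D-1 by at least 122-fold (adjusted p = 4.72e-19), Dppa2 and Dppa4, DNA-binding partners active in early embryos, higher by factors of at least 108 and 71.3, and Nr0b1, an orphan nuclear receptor, at least 67.7-fold. Esrrb, an orphan receptor that sustains self-renewal, was higher in IP14D-1 by at least 51.0-fold (adjusted p = 4.18e-13). Utf1, a chromatin-associated factor of undifferentiated cells, was above background on MEF arrays too, with 194296, 164399 and 188203 in IP14D-1, against 3247, 2146 and 4092 in MEF, a rise of 5.89 ± 0.16 log2 (adjusted p = 6.31e-16).

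Klf4 and Myc, which belong to the classical reprogramming cocktail, were above background in the fibroblasts as well. Klf4, a zinc-finger factor, had 227990, 214673 and 200499 in IP14D-1, against 56604, 44736 and 52781 in MEF, so the groups did not overlap and the gene rose by 2.07 ± 0.10 log2 (adjusted p = 3.77e-12). Myc, the growth-promoting factor, had 33798, 28526 and 36918 in IP14D-1, against 34594, 36883 and 36477 in MEF. Its signals overlapped between the groups and it was the list member that was not called (-0.13 ± 0.18 log2, adjusted p = 0.6286). Introduced and endogenous transcripts of these factors cannot be told apart here.

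The promoters of the pluripotency factors were searched for the octamer ATTTGCAT, the Pou5f1 recognition element, and for the Oct-Sox composite element, which the 2 factors bind side by side, on both strands of the 250 bases before each start. The motifs share the letters TTTGCAT. Of 32851 RefSeq windows, 1.6% held the octamer and 0.0335% the composite. Counted by gene, 1.81% of 27025 genes had a window with the octamer and 0.0333% one with the composite. Among the 16 list members with a window, Zfp42 held the octamer and Nanog the composite. Both are shown because these factors rose with Pou5f1 and Sox2, and the capitals mark the match, which is a description of letters and not evidence of binding. The Nanog window lies at chr6:122707239-122707488, plus strand, with the match starting 75 bases before the start site, and the Zfp42 window at chr8:43307010-43307259, minus strand, with the match 186 bases before it (GRCm38.p6).
Nanog: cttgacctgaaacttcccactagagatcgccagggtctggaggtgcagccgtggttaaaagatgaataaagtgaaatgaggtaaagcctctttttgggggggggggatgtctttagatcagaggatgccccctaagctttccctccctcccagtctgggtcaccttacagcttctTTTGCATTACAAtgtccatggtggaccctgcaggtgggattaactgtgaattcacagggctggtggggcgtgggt
Zfp42: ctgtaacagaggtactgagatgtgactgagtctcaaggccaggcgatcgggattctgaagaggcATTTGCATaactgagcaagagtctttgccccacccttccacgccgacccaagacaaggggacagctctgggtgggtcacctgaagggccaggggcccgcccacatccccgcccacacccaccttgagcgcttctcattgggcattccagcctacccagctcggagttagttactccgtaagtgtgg
Zfp42, also known as Rex1 and a marker of the naive state, had 83668, 86570 and 75368 in IP14D-1, against 71, 88 and 442 in MEF, higher in IP14D-1 by at least 38.9-fold (adjusted p = 3.04e-13).

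Ligands, receptors and surface proteins of stem cells had 21 of 26 measured genes higher in IP14D-1 than in MEF, 2 lower and 3 not called, with a median of 4.46 log2, and 2.84 with bounds. The Nodal pathway was represented from ligand to co-receptor to inhibitor. Nodal, a TGF-beta family ligand that patterns the early embryo, had 87068, 95506 and 99247 in IP14D-1, against 2353, 1600 and 2295 in MEF, and was chosen for naming after its values were seen. Tdgf1 (Cripto), its co-receptor, had 532975, 581182 and 613557 in IP14D-1, against 74, 45 and 80 in MEF, and Lefty2, its secreted inhibitor, had 14447, 17425 and 16554 in IP14D-1, against 110, 63 and 1217 in MEF. All IP14D-1 arrays lay above all MEF arrays for the 3 genes, and the signals were higher in IP14D-1 by factors of at least 41.5, 273 and 7.66. Fgf4, an autocrine growth factor that primes ES cells for differentiation, was higher in IP14D-1 by at least 29.2-fold and Gdf3, a TGF-beta family member, at least 46.5-fold.

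Slc2a3, a high-affinity glucose transporter, had 720986, 762269 and 760418 in IP14D-1, against 8839, 7386 and 7612 in MEF, a rise of 6.56 ± 0.08 log2 (adjusted p = 3.13e-20). Alkaline phosphatase, encoded by Alpl and the usual stain for stem cell colonies, was higher in IP14D-1 by at least 26.5-fold (adjusted p = 1.26e-16), and was also picked for naming with its values known. Podxl, an anti-adhesive sialomucin, was higher in IP14D-1 by at least 11.2-fold. Il6st, the gp130 subunit through which LIF signals, had 21072, 21965 and 18054 in IP14D-1, against 125318, 124881 and 125123 in MEF and fell by 2.62 ± 0.09 log2 (adjusted p = 3.41e-14). Bmp4, the bone morphogenetic protein that acts with LIF in serum-free culture, fell by 0.82 ± 0.16 log2 (adjusted p = 2.98e-04), with IP14D-1 replicate 3 at 31748, the nearest of the 3 to the lowest MEF signal of 34408. Fgfr3, Fut4 and Tspan8 were not called, with differences of 0.03, -0.83 and 0.70 log2.

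RNA-binding factors divided into a larger group that rose, led by embryonic factors, and 4 genes that fell, of which 3 regulate splicing. The list had 18 of 23 measured genes higher in IP14D-1 than in MEF, 4 lower and 1 not called, with a median of 0.81 log2, and 0.69 with bounds. Lin28a, which blocks maturation of let-7 microRNA precursors, had 285360, 297320 and 261821 in IP14D-1, against 548, 17 and 85 in MEF, and L1td1, an RNA-binding protein derived from a retrotransposon, had 411077, 394099 and 413620 in IP14D-1, against 1106, 376 and 186 in MEF. Neither gene had an MEF array above background, and the signals were higher in IP14D-1 by factors of at least 134 and 193. Trim71, a ubiquitin ligase that is itself a let-7 target, rose by 4.61 ± 0.18 log2. Esrp1, the splicing regulator of epithelial isoforms, was higher in IP14D-1 by at least 25.8-fold (adjusted p = 3.84e-16).

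The muscleblind proteins Mbnl1 and Mbnl2, which promote splicing patterns of differentiated cells, fell by 1.92 ± 0.12 log2 and 2.82 ± 0.13 log2. Mbnl2 had 28826, 33769 and 30166 in IP14D-1, against 218471, 219641 and 214768 in MEF, with no overlap. Rbfox2, a further splicing regulator that is active in mesenchymal cells, fell by 1.21 ± 0.10 log2, and Ago2, the slicer of microRNA-guided silencing, by 0.40 ± 0.09 log2 (adjusted p = 6.58e-04). For Ago2 the call was lost with probe sets unique to the gene preferred, at -0.28 log2 and an adjusted p of 0.0754. Igf2bp3, an oncofetal mRNA-binding protein, was near equal on its brightest probe set (0.03 ± 0.07 log2, adjusted p = 0.8032), while its other probe sets were called in both directions.

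**Figure D2:**
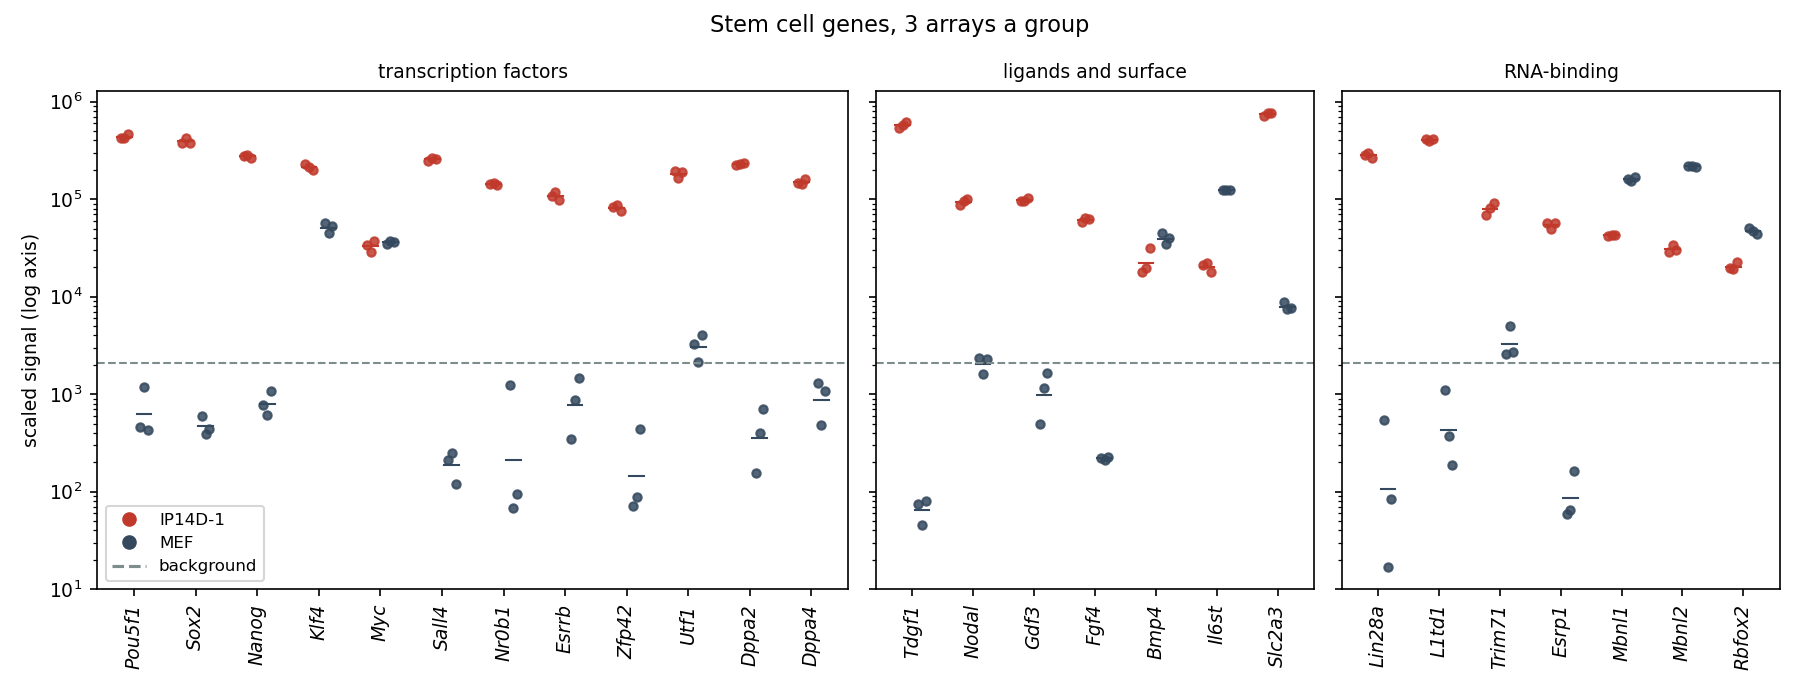
Scaled signal on a log axis for genes of the pluripotency, ligand and RNA-binding lists, with 1 point per array and a bar at the mean of log2 signals, IP14D-1 left of MEF, and the background signal of 2087 drawn as a line. The IP14D-1 arrays of Nanog lie at 266727 to 282700 and its MEF arrays at 605 to 1090, while the arrays of Myc overlap.

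Genes for the fibroblast matrix fell together. Fibrillar and fibril-associated collagens had 0 of 16 measured genes higher in IP14D-1 than in MEF, 15 lower and 1 not called, with a median of -5.78 log2, and -5.54 with bounds. Col1a1 and Col1a2, the chains of type I collagen, are the bulk of connective tissue matrix. Col1a1 had 4981, 4635 and 5299 in IP14D-1, against 900647, 956721 and 783802 in MEF, a fall of 7.46 ± 0.55 log2 (adjusted p = 1.15e-09), and Col1a2 had 6928, 4387 and 5719 in IP14D-1, against 975381, 1022917 and 854567 in MEF, a fall of 7.40 ± 0.23 log2 (adjusted p = 5.51e-15). Both genes remained above background on every IP14D-1 array, at 0.565% and 0.597% of the MEF mean. Col3a1 and Col5a2, which join type I collagen in its fibrils, fell by 7.09 ± 0.31 log2 and 6.73 ± 0.29 log2. Among the type VI chains, which form beaded filaments around cells, Col6a1 was lower in IP14D-1 by at least 68.9-fold, with 1 of 3 IP14D-1 arrays above background, Col6a3 fell by 7.05 ± 0.26 log2, with 2 of 3 above it, and Col6a2 fell by 3.60 ± 0.27 log2. Col2a1, the cartilage collagen, was not called (-1.07 ± 0.48 log2, adjusted p = 0.0874). In bulk RNA, fewer cells of a type and less RNA per cell cannot be told apart, and the part of RNA from the MEF feeder layer in the IP14D-1 signals was not tested.

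Matrix glycoproteins and proteoglycans had 0 of 28 measured genes higher in IP14D-1 than in MEF, 25 lower and 3 not called, with a median of -5.19 log2, and -3.81 with bounds. Periostin, encoded by Postn, had 2900, 2644 and 3160 in IP14D-1, against 932572, 990697 and 903310 in MEF, and Aspn, a small leucine-rich proteoglycan that inhibits TGF-beta, had 153, 643 and 46 in IP14D-1, against 257947, 227906 and 300517 in MEF. All IP14D-1 arrays were below all MEF arrays, Postn fell by 8.34 ± 0.69 log2 and Aspn was lower in IP14D-1 by at least 124-fold (adjusted p = 6.55e-09). Tenascin C (Tnc), a matrix protein of migrating cells, fell by 6.25 ± 0.31 log2, and fibulin 2 (Fbln2), an elastic fibre protein, by 7.07 ± 0.22 log2. The falls were smaller for fibronectin and SPARC, which ES cells are known to make. Fn1 had 194302, 202243 and 186065 in IP14D-1, against 806118, 855317 and 685923 in MEF, a fall of 2.00 ± 0.09 log2, and Sparc, a collagen-binding protein, fell by 2.75 ± 0.10 log2. Fbln1 was not called (-0.31 ± 0.13 log2, adjusted p = 0.0650), with signals of 22491, 21369 and 20741 in IP14D-1, against 28773, 26309 and 25137 in MEF, nor were Prelp and Tnxb.

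Enzymes that cross-link or cut the matrix and their inhibitors had 0 of 29 measured genes higher in IP14D-1 than in MEF, 26 lower and 3 not called, with a median of -3.98 log2, and -3.71 with bounds. Lysyl oxidase, encoded by Lox and the enzyme that cross-links collagen and elastin, had 12444, 12081 and 13852 in IP14D-1, against 707625, 757170 and 686588 in MEF, a fall of 5.81 ± 0.37 log2 (adjusted p = 1.58e-10). Its relatives Loxl1 and Loxl3 fell by 6.29 ± 0.14 log2 and 5.21 ± 0.19 log2. Serpinf1, a secreted serpin that restrains blood vessel growth, fell by 6.45 ± 0.15 log2, Adamts5, an aggrecan-cutting protease, by 5.84 ± 0.31 log2, and the metalloproteinase inhibitor Timp1 by 3.51 ± 0.12 log2. Mmp2, a gelatinase, kept 14.3% of the MEF mean and fell by 2.80 ± 0.13 log2. Mmp3, Mmp13 and Plau were not called, with Plau below background in both groups.

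**Figure D3:**
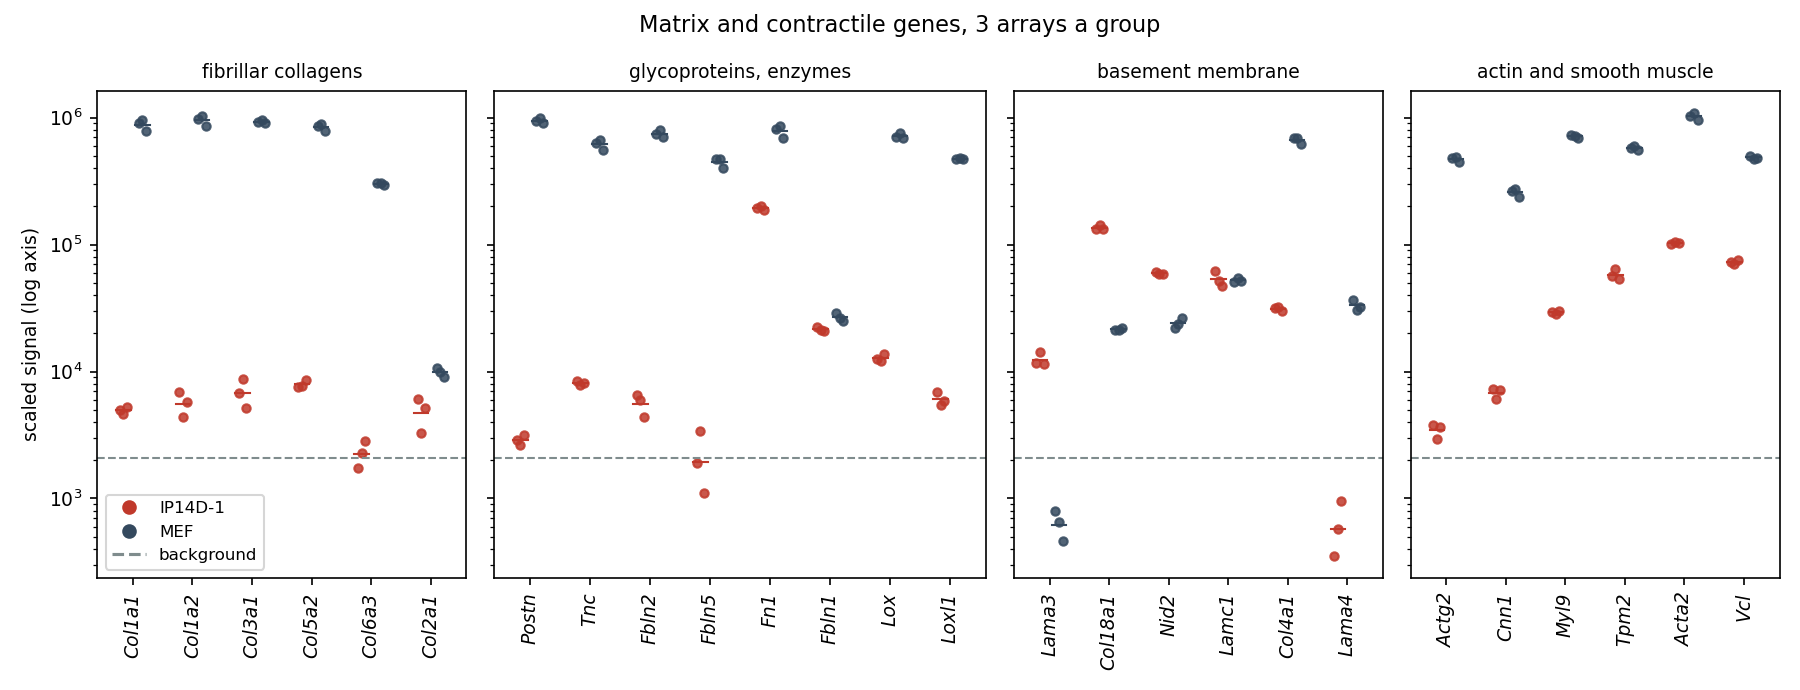
Scaled signal on a log axis for collagen, matrix protein, cross-linking enzyme, basement membrane and contractile genes, with 1 point per array and a bar at the mean of log2 signals, IP14D-1 left of MEF, and the background signal of 2087 as a line. The IP14D-1 arrays of Col1a1 lie at 4635 to 5299 and its MEF arrays at 783802 to 956721, while Fn1 stays at 186065 to 202243 in IP14D-1, against 685923 to 855317 in MEF.

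Basement membrane genes, in contrast to the fibrillar collagens, moved in both directions. The list had 7 of 19 measured genes higher in IP14D-1 than in MEF, 10 lower and 2 not called, with a median of -1.29 log2, and -1.17 with bounds. The laminin alpha chains, which determine where a laminin is used, differed by member. Lama3, an epithelial chain, had 11718, 14199 and 11498 in IP14D-1, against 796, 653 and 466 in MEF, higher in IP14D-1 by at least 5.91-fold, whereas Lama4, a mesenchymal and vessel chain, had 354, 574 and 947 in IP14D-1, against 36822, 30625 and 32405 in MEF, lower in IP14D-1 by at least 15.8-fold. Lama2, the muscle chain, was lower in IP14D-1 by at least 7.46-fold, and Lama1, the chain of the early embryo, rose by 0.57 ± 0.16 log2 (adjusted p = 0.0073), a call lost without scaling, with only the 6 arrays fitted, with the replicate block and without MEF replicate 1 (adjusted p = 0.0536 to 0.0900). Type IV collagen genes Col4a1 and Col4a2 fell by 4.42 ± 0.09 log2 and 4.51 ± 0.15 log2. Col18a1, a collagen with heparan sulphate chains, had 132425, 143377 and 132680 in IP14D-1, against 21285, 21104 and 22169 in MEF and rose by 2.66 ± 0.09 log2 (adjusted p = 2.05e-14), and the linker protein Nid2 rose by 1.30 ± 0.09 log2. Lamc1, the common gamma chain, was near equal (0.03 ± 0.09 log2, adjusted p = 0.8461).

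Integrins, the receptors for these matrices, also had members that moved in each direction. They had 4 of 17 measured genes higher in IP14D-1 than in MEF, 10 lower and 3 not called, with a median of -2.02 log2, and -1.59 with bounds. With 29.3% higher and 22.3% lower over all genes, only the lower count exceeded its share. Itga6, a laminin receptor subunit typical of stem cells and epithelia, had 91122, 90642 and 100063 in IP14D-1, against 20685, 15932 and 15816 in MEF, a rise of 2.44 ± 0.09 log2 (adjusted p = 7.96e-14), and Itga3, a second laminin receptor subunit, rose by 3.16 ± 0.12 log2. Itgav, which pairs with several beta chains to bind fibronectin and vitronectin, had 46762, 60191 and 43951 in IP14D-1, against 308676, 314783 and 313956 in MEF and fell by 2.65 ± 0.10 log2. Itga8 and Itga4, further subunits that bind fibronectin, were lower by factors of at least 9.72 and 4.57. Itgb8 was not called (-2.02 ± 0.85 log2, adjusted p = 0.0660), and Itga2 and Itgb6 were below background in both groups.

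Genes of cell-to-cell contact moved by member, with E-cadherin higher in IP14D-1 and 3 other cadherins lower. Cadherins and junction proteins had 19 of 27 measured genes higher in IP14D-1 than in MEF, 3 lower and 5 not called, with a median of 3.25 log2, and 1.59 with bounds. Cdh1, or E-cadherin, had 290820, 294338 and 271292 in IP14D-1, against 680, 331 and 712 in MEF, higher in IP14D-1 by at least 136-fold (adjusted p = 2.93e-17). Cdh2, or N-cadherin, had 17663, 18623 and 14288 in IP14D-1, against 83997, 82888 and 89498 in MEF, a fall of 2.35 ± 0.17 log2 (adjusted p = 7.04e-10). Cdh11, the cadherin of mesenchyme and bone, had 3342, 2484 and 3196 in IP14D-1, against 635470, 670637 and 661772 in MEF, a fall of 7.77 ± 0.32 log2 (adjusted p = 2.32e-13). E-cadherin was below background in MEF, N-cadherin was above it in both groups, and Cdh11 was near it in IP14D-1. Cdh3, or P-cadherin, fell by 1.08 ± 0.30 log2 (adjusted p = 0.0056). Epcam, an epithelial adhesion molecule, Dsg2, a desmosomal cadherin, and the claudins Cldn7 and Cldn6 of tight junctions were higher by factors of at least 58.9, 26.9, 20.9 and 19.3. The shared junction plaque proteins Jup and Pkp2 were not called (-0.04 and -0.17 log2).

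Intermediate filaments had 8 of 17 measured genes higher in IP14D-1 than in MEF, 4 lower and 5 not called. Shares over all genes were 29.3% higher and 22.3% lower, and the lower count lay near its share. Krt8 and Krt18, the paired keratins of simple epithelia, rose by 5.14 ± 0.14 log2 and 4.05 ± 0.10 log2, and Krt8 had 85482, 82192 and 84482 in IP14D-1, against 1979, 2155 and 3085 in MEF. Vimentin, the mesenchymal filament encoded by Vim, had 151969, 149757 and 170542 in IP14D-1, against 1130141, 1219600 and 1016333 in MEF, and fell by 2.83 ± 0.09 log2 (adjusted p = 5.39e-15) to 14.0% of the MEF mean. Des, the muscle filament, and Nes, the filament of neural progenitors, fell by 2.05 ± 0.23 log2 and 2.39 ± 0.23 log2. Lmna, the A-type nuclear lamin of differentiated cells, had 17192, 18132 and 18218 in IP14D-1, against 210209, 210859 and 190971 in MEF, a fall of 3.51 ± 0.12 log2, whereas Lmnb1, a B-type lamin named after its values were seen, rose by 1.84 ± 0.11 log2. Krt17 was called with both groups below background.

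All 24 genes of the actin cytoskeleton list fell, with a median of -2.69 log2 with or without bounds, against 22.3% lower over all genes. Acta2, the smooth muscle actin of contractile fibroblasts, had 101184, 104334 and 102911 in IP14D-1, against 1024978, 1092695 and 949533 in MEF, a fall of 3.31 ± 0.12 log2 (adjusted p = 5.98e-14). Actg2, the enteric smooth muscle actin, had 3819, 2915 and 3648 in IP14D-1, against 481295, 486297 and 443802 in MEF, a fall of 7.09 ± 0.50 log2 (adjusted p = 6.36e-10). The groups did not overlap for either gene, and Acta2 stayed well above background in IP14D-1. Calponin 1 (Cnn1), an actin-binding regulator of contraction, fell by 5.23 ± 0.44 log2, and the tropomyosin gene Tpm2 by 3.32 ± 0.11 log2. Lmod1, which seeds actin filaments in smooth muscle, was lower in IP14D-1 by at least 12.9-fold.

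The CArG box, the element bound by serum response factor at many contractile genes, was searched for on both strands of the same 250-base windows. It occurred in 1.47% of all windows, and 1.62% of the 27025 genes with a window had it. Of the 22 list members with a window, 4 had it: Cnn2, Lima1, Myl9 and Vcl. These 4 genes were named after their values were seen. Myl9, the regulatory light chain of non-muscle and smooth muscle myosin, fell by 4.61 ± 0.17 log2 with 29473, 28622 and 29722 in IP14D-1, against 734303, 717676 and 687876 in MEF, and Vcl, or vinculin, which ties actin to adhesion sites, fell by 2.75 ± 0.08 log2 with 72406, 69667 and 75184 in IP14D-1, against 498733, 475367 and 484536 in MEF. Cnn2 and Lima1, both actin-binding proteins, fell by 2.75 ± 0.10 log2 and 1.83 ± 0.11 log2. The Myl9 and Vcl windows are shown to place the element at genes that fell, with the match in capitals. They lie at chr2:156775214-156775463, plus strand, the match 161 bases before the start site, and at chr14:20929148-20929397, plus strand, the match 227 bases before it (RefSeq, GRCm38.p6).
Myl9: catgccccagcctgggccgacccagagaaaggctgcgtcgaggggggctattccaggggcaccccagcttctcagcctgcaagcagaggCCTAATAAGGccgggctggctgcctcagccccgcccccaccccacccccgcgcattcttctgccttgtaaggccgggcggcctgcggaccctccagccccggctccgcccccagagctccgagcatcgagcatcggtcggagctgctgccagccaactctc
Vcl: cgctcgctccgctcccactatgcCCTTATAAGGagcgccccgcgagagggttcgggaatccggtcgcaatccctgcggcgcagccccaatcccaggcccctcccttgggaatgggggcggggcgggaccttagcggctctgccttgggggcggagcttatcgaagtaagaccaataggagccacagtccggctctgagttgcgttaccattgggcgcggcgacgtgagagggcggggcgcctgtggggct
No match says only that these letters are not in the window.

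Caveolae, the membrane pits abundant in fibroblasts, and the calcium-binding annexins and S100 proteins had 0 of 21 measured genes higher in IP14D-1 than in MEF, 20 lower and 1 not called, with a median of -3.19 log2 with or without bounds. Cav1, the main coat protein, had 8987, 7369 and 8216 in IP14D-1, against 237554, 246942 and 264785 in MEF, a fall of 4.93 ± 0.32 log2. The coat adaptor Cavin2 was lower in IP14D-1 by at least 36.2-fold, and Cavin3 and the membrane-neck ATPase Ehd2 fell by 4.36 ± 0.28 log2 and 4.36 ± 0.29 log2. S100a4, known as fibroblast-specific protein, fell by 5.71 ± 0.47 log2. Anxa8 was not called (0.56 ± 0.31 log2, adjusted p = 0.1730).

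Transcription factors of mesenchyme and of epithelial-mesenchymal transition had 0 of 35 measured genes higher in IP14D-1 than in MEF, 26 lower and 9 not called, with a median of -2.94 log2, and -2.40 with bounds. Snai2 (Slug), a repressor of E-cadherin, had 833, 2293 and 1155 in IP14D-1, against 187355, 191282 and 197082 in MEF, lower in IP14D-1 by at least 88.5-fold (adjusted p = 5.29e-09), with 1 of 3 IP14D-1 arrays above background. Prrx1, a limb and mesenchyme homeodomain factor, had 1553, 1371 and 1089 in IP14D-1, against 135017, 130283 and 140536 in MEF, lower in IP14D-1 by at least 64.3-fold. For both, every IP14D-1 array was at 2293 or less and every MEF array at 130283 or more. Nfix, Foxc2, Twist2 and Osr1, factors of connective tissue and mesoderm, were lower by factors of at least 85.1, 25.3, 21.4 and 10.2. Twist1, the relative of Twist2, remained above background, with 4561, 4394 and 3980 in IP14D-1, against 40108, 30843 and 47366 in MEF, and fell by 3.17 ± 0.27 log2. Msx1 and Msx2, homeodomain factors downstream of BMP, were not called (0.16 and 0.84 log2), nor were Foxf2 and Runx1.

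Signalling genes moved by family member. The TGF-beta and BMP list had 6 of 37 measured genes higher in IP14D-1 than in MEF, 21 lower and 10 not called, with a median of -1.02 log2, and -0.98 with bounds. Tgfb3, a TGF-beta ligand, had 1605, 99 and 159 in IP14D-1, against 199577, 193430 and 170812 in MEF, lower in IP14D-1 by at least 89.2-fold (adjusted p = 1.16e-07). Of its receptors, Tgfbr2 had 4243, 3282 and 3360 in IP14D-1, against 121787, 120021 and 121600 in MEF, a fall of 5.07 ± 0.23 log2, while Tgfbr1 was not called (-0.18 ± 0.10 log2, adjusted p = 0.1678). The latent TGF-beta binding proteins Ltbp2 and Ltbp3, which store the ligand in the matrix, fell by 5.16 ± 0.96 log2 and 4.65 ± 0.22 log2, and the transducer Smad2 was not called (-0.23 log2). Id1 and Id2, which BMP induces and which inhibit differentiation factors, rose by 2.82 ± 0.16 log2 and 3.10 ± 0.12 log2. Id3, the third of these inhibitors, had 77529, 60796 and 82020 in IP14D-1, against 92260, 88479 and 89710 in MEF, with all IP14D-1 arrays below all MEF arrays, and was not called (-0.31 ± 0.15 log2, adjusted p = 0.1162).

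The Wnt list was divided almost evenly, with 15 of 38 measured genes higher in IP14D-1 than in MEF, 18 lower and 5 not called and a median of 0.01 log2, and 0.00 with bounds. Axin2, a feedback target of beta-catenin, had 18382, 19250 and 20949 in IP14D-1, against 840, 420 and 755 in MEF, higher in IP14D-1 by at least 9.28-fold (adjusted p = 3.78e-12). Porcn, the enzyme that acylates Wnt ligands for secretion, had 44119, 47136 and 43457 in IP14D-1, against 4488, 5505 and 5810 in MEF and rose by 3.10 ± 0.12 log2. Wnt5a, a ligand that acts without beta-catenin, fell by 3.89 ± 0.59 log2. The secreted modulators went opposite ways: Sfrp2 and Rspo1 were higher by factors of at least 3.88 and 2.11, Dkk2 was lower in IP14D-1 by at least 15.6-fold and Dkk3 fell by 3.95 ± 0.35 log2. Ctnnb1, which encodes beta-catenin, and the receptor Lrp6 were not called (0.14 and -0.12 log2).

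Receptor tyrosine kinases had 5 of 27 measured genes higher in IP14D-1 than in MEF, 16 lower and 6 not called, with a median of -1.14 log2, and -1.08 with bounds. The PDGF receptors, which drive fibroblast growth, were below background in IP14D-1. Pdgfrb had 546, 1708 and 1154 in IP14D-1, against 278024, 294127 and 315877 in MEF, lower in IP14D-1 by at least 141-fold (adjusted p = 2.06e-08), and Pdgfra had 765, 1517 and 852 in IP14D-1, against 22599, 16586 and 28889 in MEF, lower in IP14D-1 by at least 10.5-fold. The collagen receptor Ddr2 was lower in IP14D-1 by at least 43.3-fold, and Axl, a receptor for Gas6, fell by 4.66 ± 0.18 log2. In the other direction, Erbb3, which pairs with other ERBB receptors, rose by 3.37 ± 0.15 log2, and the ephrin receptors Epha1 and Epha2 by 3.49 ± 0.33 log2 and 2.54 ± 0.16 log2. Tek, known as the angiopoietin receptor of endothelium, had 7605, 7849 and 7841 in IP14D-1, against 633, 842 and 1364 in MEF, higher in IP14D-1 by at least 3.70-fold (adjusted p = 1.29e-08). Mertk, Ntrk2 and Kdr were not called.

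Hedgehog and Hippo genes had 6 of 27 measured genes higher in IP14D-1 than in MEF, 17 lower and 4 not called, with a median of -0.76 log2 with or without bounds. The Hedgehog receptor Ptch1, itself a target of the pathway, had 68107, 68925 and 70712 in IP14D-1, against 11930, 12421 and 13106 in MEF and rose by 2.47 ± 0.08 log2 (adjusted p = 4.58e-15). Gli1, the pathway's transcriptional target and effector, was higher in IP14D-1 by at least 6.85-fold, while the ligands Shh and Ihh were not called. The co-receptors Gas1 and Boc fell by 3.47 ± 0.28 log2 and 2.01 ± 0.39 log2. On the Hippo side, Ajuba, a LATS-binding scaffold, rose by 1.91 ± 0.09 log2, Vgll3, a TEAD cofactor, fell by 3.10 ± 0.13 log2, and the DNA-binding partner Tead2 was not called (0.15 log2).

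Retinoid and nuclear receptor genes had 5 of 26 measured genes higher in IP14D-1 than in MEF, 13 lower and 8 not called, with a median of -1.42 log2, and -0.23 with bounds. Nr6a1, the germ cell nuclear factor that represses Pou5f1 on differentiation, had 46274, 43377 and 45981 in IP14D-1, against 1234, 2279 and 1614 in MEF, higher in IP14D-1 by at least 20.9-fold (adjusted p = 7.63e-15). Nr2f1 and Nr2f2, the COUP-TF receptors of mesenchyme and vessels, were lower by factors of at least 8.02 and 10.5. Rarg, a retinoic acid receptor, rose by 0.66 ± 0.09 log2, and Rara was not called (0.38 log2). Growth factors, cytokines and chemokines of fibroblasts had 3 of 32 measured genes higher in IP14D-1 than in MEF, 20 lower and 9 not called, with a median of -1.98 log2, and -1.51 with bounds. Cxcl12, a chemokine of stromal cells, had 3169, 3486 and 5306 in IP14D-1, against 435925, 426790 and 438455 in MEF, a fall of 6.80 ± 0.59 log2, and Il6 and Igf1 were lower by factors of at least 7.32 and 4.77. Igfbp2, which binds insulin-like growth factors, rose by 2.73 ± 0.12 log2, and Fgf5, a marker of the primed epiblast, was higher in IP14D-1 by at least 2.29-fold (adjusted p = 8.74e-06).

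Cell cycle genes differed by family member as well, with 14 of 28 measured genes higher in IP14D-1 than in MEF, 9 lower and 5 not called and a median of 0.41 log2, and 0.26 with bounds. Ccne1, the cyclin that starts DNA synthesis, had 116842, 108317 and 123309 in IP14D-1, against 18554, 22470 and 16913 in MEF, a rise of 2.60 ± 0.11 log2 (adjusted p = 6.57e-13). The D-type cyclins, which relay growth factor signals, went 3 ways. Ccnd2 had 25284, 20768 and 24638 in IP14D-1, against 489933, 493736 and 459625 in MEF, a fall of 4.36 ± 0.12 log2, Ccnd1 rose by 0.58 ± 0.09 log2, and Ccnd3 was not called (-0.11 log2). The CDK inhibitors Cdkn1a and Cdkn2b, which halt the cycle on damage or TGF-beta, fell by 2.89 ± 0.11 log2 and 3.65 ± 0.23 log2. Cdkn2a, which encodes the Ink4a and Arf barriers to reprogramming, fell by 1.32 ± 0.29 log2 (adjusted p = 0.0011). Cdkn1c, an imprinted inhibitor, rose by 2.35 ± 0.19 log2, and Rb1 and E2f3 were not called.

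DNA repair genes had 27 of 34 measured genes higher in IP14D-1 than in MEF, 1 lower and 6 not called, with a median of 2.15 log2, and 1.98 with bounds. Msh6, a mismatch recognition subunit, had 345353, 330803 and 371772 in IP14D-1, against 25650, 25605 and 26587 in MEF, a rise of 3.75 ± 0.07 log2 (adjusted p = 3.14e-18). Brca1, which directs homologous recombination, had 64140, 63672 and 68038 in IP14D-1, against 8341, 8436 and 8348 in MEF, a rise of 2.96 ± 0.09 log2 (adjusted p = 2.88e-15). Signals of IP14D-1 were several times those of MEF on every array for both genes. Ung, which removes uracil, Lig1, the replicative ligase, and Fanci, of the crosslink repair pathway, rose by 3.14 ± 0.11 log2, 2.90 ± 0.08 log2 and 2.90 ± 0.14 log2. Ercc1, an endonuclease subunit of nucleotide excision repair, was the member that fell (0.33 ± 0.09 log2, adjusted p = 0.0068), and the ligases Lig3 and Lig4 were not called (-0.06 and 0.13 log2).

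The E2F element TTTCCCGC, through which many replication genes are induced at the start of DNA synthesis, lay in 0.895% of the 250-base windows, both strands searched. Counted by gene, 1.03% of 27025 genes had it, and 4 of the 29 repair genes with a window: Bard1, Brca2, Chek2 and Xrcc6. These were named after their values were seen. Brca2, which acts in homologous recombination, had 46340, 46286 and 45309 in IP14D-1, against 7098, 8204 and 8994 in MEF, a rise of 2.51 ± 0.15 log2. Chek2, a checkpoint kinase, and Xrcc6, a subunit of Ku, rose by 1.70 ± 0.09 log2 and 1.36 ± 0.07 log2, and Bard1, the partner of Brca1, was higher in IP14D-1 by at least 1.39-fold. The Brca2 window lies at chr5:150522371-150522620, plus strand (RefSeq, GRCm38.p6), with the reverse complement GCGGGAAA in capitals 168 bases before the start site, and is shown as the example of a repair gene with the element.
Brca2: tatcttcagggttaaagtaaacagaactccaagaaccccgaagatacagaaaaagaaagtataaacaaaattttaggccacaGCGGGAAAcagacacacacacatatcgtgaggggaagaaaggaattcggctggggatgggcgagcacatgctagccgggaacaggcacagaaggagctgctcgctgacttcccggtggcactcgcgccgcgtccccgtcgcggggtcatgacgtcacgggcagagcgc
None of the 10 largest rises and 10 largest falls that had a window held any of the 4 motifs searched.

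Telomere genes had 12 of 17 measured genes higher in IP14D-1 than in MEF, 0 lower and 5 not called, with a median of 1.53 log2, and 1.44 with bounds. Tert, the catalytic subunit of telomerase, had 6652, 3797 and 4728 in IP14D-1, against 883, 2065 and 2017 in MEF, higher in IP14D-1 by at least 2.35-fold (adjusted p = 5.06e-04). Dkc1 and Nhp2, of the particle that stabilises telomerase RNA, rose by 2.54 ± 0.10 log2 and 2.08 ± 0.08 log2. Terf1, a shelterin protein on telomeric DNA, had 97819, 88543 and 93063 in IP14D-1, against 14587, 13386 and 15963 in MEF and rose by 2.67 ± 0.13 log2, while the shelterin genes Terf2, Terf2ip and Acd were not called (-0.06, 0.02 and 0.17 log2). Rif1, which controls replication timing and repair, rose by 4.03 ± 0.15 log2 (adjusted p = 1.06e-13). Rtel1, a helicase at telomeres, rose by 1.55 ± 0.11 log2 on its brightest probe set, but was lower by a factor of at least 7.93 on the probe set unique to it (adjusted p = 0.0011), where IP14D-1 was below background.

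Genes that silence retroelements and build heterochromatin had 21 of 27 measured genes higher in IP14D-1 than in MEF, 0 lower and 6 not called, with a median of 1.79 log2 with or without bounds. Dnmt3b, a de novo DNA methyltransferase, had 331982, 317911 and 354357 in IP14D-1, against 1468, 2290 and 2328 in MEF, and Dnmt3l, its catalytically inactive cofactor, had 361919, 353460 and 391390 in IP14D-1, against 269, 299 and 637 in MEF. Both were near or below background on the MEF arrays, and the signals were higher in IP14D-1 by factors of at least 149 and 175. Tet1, which oxidises methylcytosine, rose by 6.50 ± 0.14 log2 (adjusted p = 4.38e-17), Hells, a remodeller needed for DNA methylation at repeats, by 3.22 ± 0.10 log2, and Suv39h2, a histone methyltransferase of heterochromatin, by 2.98 ± 0.16 log2. Hdac2 and the macroH2A genes Macroh2a1 and Macroh2a2 were not called (-0.16, -0.10 and -0.17 log2).

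Subunits of the BAF chromatin remodelling complexes, which exist in a stem cell form and in other forms, had 10 of 21 measured genes higher in IP14D-1 than in MEF, 5 lower and 6 not called, with a median of 0.09 log2 with or without bounds. The ATPase Smarca4 (Brg1), of the stem cell form, rose by 0.57 ± 0.07 log2, and its alternative Smarca2 (Brm) had 1660, 1611 and 2541 in IP14D-1, against 9895, 9160 and 12276 in MEF, lower in IP14D-1 by at least 4.62-fold. Smarcc1, the core subunit of the stem cell form, rose by 1.22 ± 0.09 log2, and its paralogue Smarcc2 fell to 35.1% of the MEF mean (adjusted p = 3.89e-07). Smarcd1 rose by 2.89 ± 0.17 log2, and Smarcd3, the subunit used in muscle and heart, fell by 2.75 ± 0.20 log2. Arid1a rose by 1.76 ± 0.09 log2 and Arid1b fell by 0.83 ± 0.13 log2. Smarca4 and Smarcc1 were named after their values were seen. The subunits Smarce1 and Brd9 were not called.

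**Figure D4:**
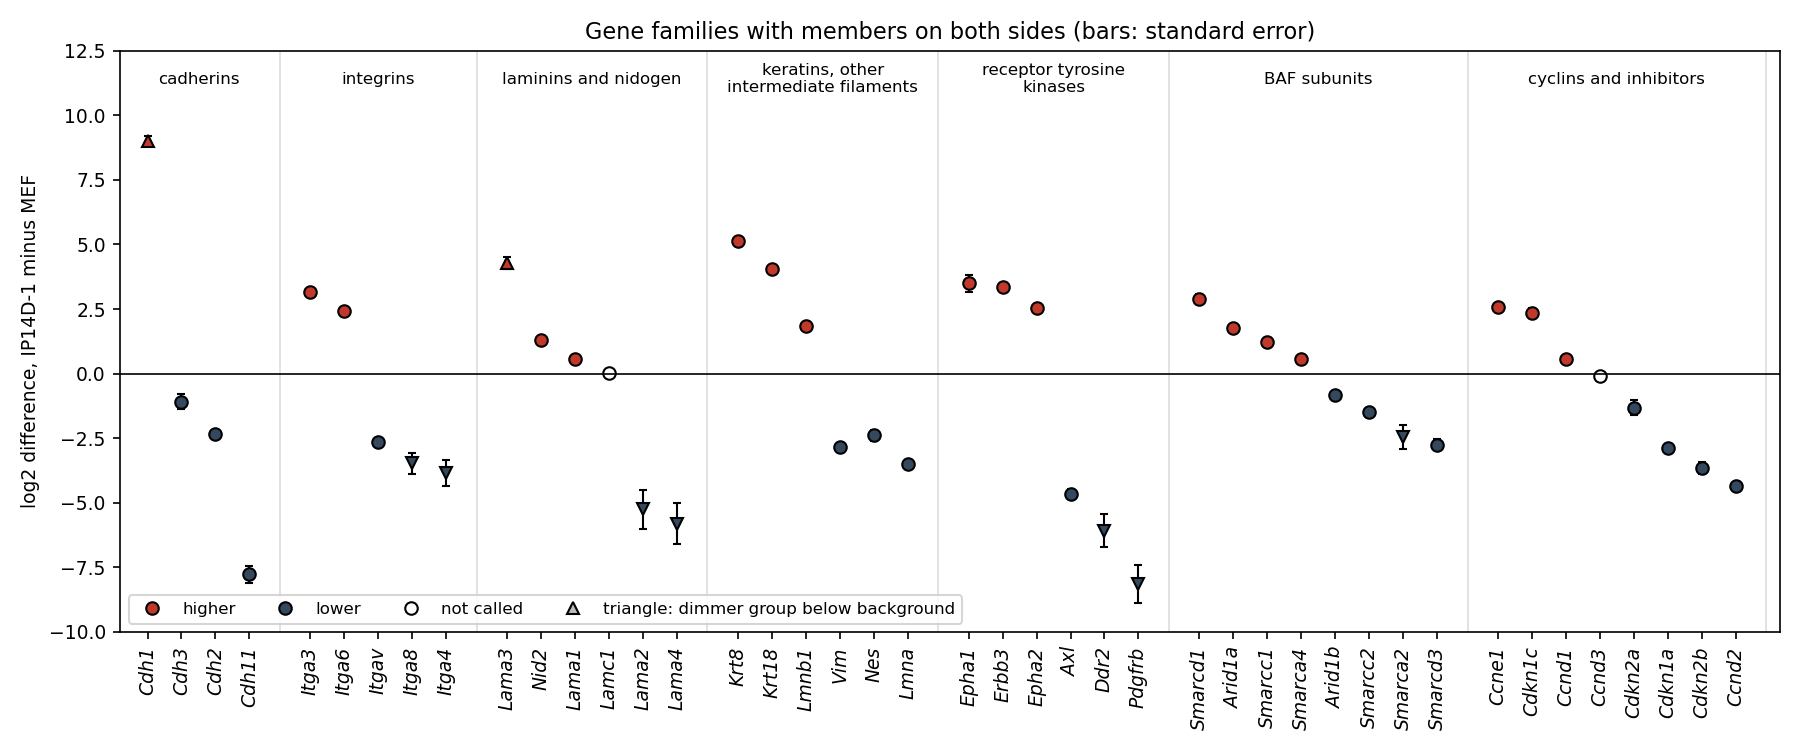
Log2 difference, IP14D-1 minus MEF, with standard errors, (vertical axis) for members of cadherin, integrin, laminin and nidogen, filament, receptor kinase, BAF and cyclin families. Values above 0 are higher in IP14D-1, open points were not called, and triangles are fitted values, not bounds, of genes whose dimmer group was below background. Each family has members on both sides of 0, such as Smarcd1 at 2.89 and Smarcd3 at -2.75.

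Nuclear pore, import and lamina genes had 18 of 24 measured genes higher in IP14D-1 than in MEF, 3 lower and 3 not called, with a median of 1.00 log2 with or without bounds. Nup210, a membrane-spanning pore protein, had 19331, 19978 and 20001 in IP14D-1, against 124, 273 and 382 in MEF, higher in IP14D-1 by at least 9.41-fold (adjusted p = 2.51e-13). Nup133 and Nup43, of the pore's outer ring, rose by 2.22 ± 0.09 log2 and 2.21 ± 0.08 log2, and Lbr, which tethers heterochromatin to the envelope, by 2.04 ± 0.08 log2. Syne1 and Sun2, which couple the nucleus to the cytoskeleton, fell by 3.38 ± 0.37 log2 and 1.58 ± 0.13 log2.

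Genes of threonine, glycine and one-carbon metabolism had 12 of 19 measured genes higher in IP14D-1 than in MEF, 3 lower and 4 not called, with a median of 0.56 log2, and 0.39 with bounds. Gldc, which cleaves glycine in mitochondria, had 75744, 67376 and 75447 in IP14D-1, against 135, 686 and 626 in MEF, higher in IP14D-1 by at least 34.6-fold (adjusted p = 1.82e-12). The cytosolic enzymes Shmt1 and Mthfd1, which pass one-carbon units to nucleotide synthesis, rose by 4.09 ± 0.13 log2 and 2.83 ± 0.09 log2, while their mitochondrial counterparts Shmt2 and Mthfd2 were not called (0.15 and 0.14 log2). The serine synthesis enzymes Phgdh and Psph fell by 0.72 ± 0.10 log2 and 0.52 ± 0.09 log2. The threonine-cleaving enzyme Tdh was not analysed here.

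Lysosome genes had 3 of 28 measured genes higher in IP14D-1 than in MEF, 21 lower and 4 not called, with a median of -0.81 log2 with or without bounds. Lamp2, a membrane protein of lysosomes, had 41894, 45011 and 33364 in IP14D-1, against 227441, 219384 and 234195 in MEF, a fall of 2.51 ± 0.16 log2. The cathepsins Ctsk, Ctsh and Ctss were lower by factors of at least 19.9, 16.9 and 11.6, and the lysosomal lipase Lipa fell by 2.56 ± 0.17 log2. Tfe3 and Tfeb, transcription factors for lysosomal genes, and Mcoln1, a lysosomal channel, were the 3 members that rose, by 1.44 ± 0.10 log2, 0.60 ± 0.17 log2 and 0.90 ± 0.14 log2. Tfeb lost its call under 2 of 17 alternatives (adjusted p = 0.0528 and 0.0830). Apoptosis regulators had 11 of 30 measured genes higher in IP14D-1 than in MEF, 10 lower and 9 not called, with a median of -0.07 log2 with or without bounds. Casp8, the initiator caspase of death receptors, and the receptor Tnfrsf1a fell by 3.20 ± 0.26 log2 and 3.44 ± 0.24 log2, the death receptor Fas was lower in IP14D-1 by at least 5.07-fold, and Hrk and Bik, death-promoting members of the BCL2 family, were higher by factors of at least 4.72 and 1.22. Cycs, Apaf1 and Xiap, of the caspase activation step, were not called.

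Markers of other cell types were examined for what else either culture could hold. Their counts stand against 29.3% higher and 22.3% lower over all genes. Macrophage and blood markers had 2 of 18 measured genes higher in IP14D-1 than in MEF, 10 lower and 6 not called, with 5 above background in IP14D-1 and 14 in MEF. Their summed signal was 62307 to 66084 in IP14D-1 and 122053 to 138226 in MEF. C1qa, a complement subunit made by macrophages, had 174, 159 and 217 in IP14D-1, against 15531, 14030 and 13778 in MEF. The signals of C1qa, C1qb, C1qc and the lysozyme gene Lyz2 were below background in IP14D-1 and above it on every MEF array, lower by factors of at least 6.87, 6.61, 4.46 and 12.7 in IP14D-1. Markers of this kind moved with the cathepsins and the fibroblast cytokines named among the falls, and their part in those results was not tested. Cd68 and Laptm5, lysosomal proteins of blood cells, rose by 1.02 ± 0.21 log2 and 2.24 ± 0.12 log2, but Laptm5 stood at -0.52 log2, not called, with unique probe sets preferred.

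Endothelial markers had 7 of 15 measured genes higher in IP14D-1 than in MEF, 2 lower and 6 not called, with 6 above background in IP14D-1 and 3 in MEF, and summed signals of 54915 to 70297 in IP14D-1 and 36203 to 38370 in MEF. Pecam1, which mouse stem cells also express, had 16383, 22606 and 13233 in IP14D-1, against 110, 297 and 1847 in MEF, higher in IP14D-1 by at least 8.09-fold, while the defining Cdh5, Tie1 and Robo4 were below background in both groups. Emcn, an endothelial sialomucin, was lower in IP14D-1 by at least 7.72-fold. Muscle markers had 1 of 14 measured genes higher in IP14D-1 than in MEF, 5 lower and 8 not called, with summed signals of 22375 to 29744 in IP14D-1 and 147682 to 164287 in MEF. The myogenic regulators Myod1, Myf5, Myog and Pax7 were below background in both groups, and Acta1, the skeletal actin, fell by 3.85 ± 0.18 log2 with 7593, 6882 and 6145 in IP14D-1, against 98699, 105728 and 92711 in MEF. The 5 lower muscle markers became 3 when IP14D-1 replicate 2 or 3 or MEF replicate 2 or 3 was left out. The 1 higher became 0 when any other array than MEF replicate 3 was left out, and 2 without that array. This 1 was Tnnt2, whose shown probe set was below background in both groups. Other probe sets of Tnnt2, above background in MEF only, were lower in IP14D-1 by factors of at least 2.99 and 2.50 (adjusted p = 0.0048 and 7.44e-04).

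Neural markers had 5 of 13 measured genes higher in IP14D-1 than in MEF, 3 lower and 5 not called, with summed signals of 221408 to 236473 in IP14D-1 and 100618 to 102986 in MEF. Over all genes 29.3% were higher and 22.3% lower. Olig2, a factor of oligodendrocytes and motor neuron progenitors, had 18961, 17990 and 18754 in IP14D-1, against 17, 906 and 19 in MEF, higher in IP14D-1 by at least 8.84-fold (adjusted p = 1.24e-07), and Sox1 and Pax6, early neural factors, were higher by factors of at least 2.47 and 3.31. Stmn2, a microtubule regulator of neurons, rose by 3.25 ± 0.07 log2, whereas the neuronal genes Dcx and Neurog2 were below background in both groups. The 3 lower members were Nes, given among the filaments, Map2 and Tubb3. Map2 lost its call under 3 of 17 alternatives (adjusted p = 0.0539 to 0.0654), as did Tubb3 (0.0739 to 0.1100). Trophoblast markers had 6 of 10 measured genes higher in IP14D-1 than in MEF, 0 lower and 4 not called, with summed signals of 71978 to 78916 in IP14D-1 and 12480 to 17255 in MEF. Tfap2c, shared by trophoblast and germ cells, had 40273, 36676 and 32554 in IP14D-1, against 347, 38 and 214 in MEF, higher in IP14D-1 by at least 17.3-fold, and Eomes, Ascl2 and Cdx2 were higher by factors of at least 4.92, 2.38 and 1.68, with Elf5 and Tpbpa below background in both groups.

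Primitive endoderm markers had 4 of 15 measured genes higher in IP14D-1 than in MEF, 4 lower and 7 not called, with summed signals of 185270 to 208137 in IP14D-1 and 1112029 to 1229083 in MEF, to which Sparc, also a fibroblast marker, contributed most. Both counts lay near the shares over all genes, 29.3% higher and 22.3% lower. Gata6, a key endoderm factor, had 1289, 2049 and 2733 in IP14D-1, against 16620, 14627 and 16736 in MEF, lower in IP14D-1 by at least 6.95-fold, whereas Sox7 was higher in IP14D-1 by at least 1.30-fold, and Sox17, Foxa2, Ttr and Afp were below background in both groups. Keratinocyte markers had 4 of 10 measured genes higher in IP14D-1 than in MEF, 0 lower and 6 not called, with summed signals of 82181 to 101169 in IP14D-1 and 11049 to 17034 in MEF. Only 4 of the 10 were above background in either group, and 2 were called higher with dim probe sets left out. Perp gave most of the IP14D-1 sum. Perp, a desmosomal protein, was higher in IP14D-1 by at least 31.3-fold (adjusted p = 2.85e-17), while the defining Krt14 and Trp63 were below background in both groups.

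Several of the 15 largest rises and 15 largest falls lay outside the lists. Gsta4, a glutathione transferase that detoxifies lipid aldehydes, had 459336, 473517 and 501669 in IP14D-1, against 1801, 617 and 403 in MEF, higher in IP14D-1 by at least 227-fold (adjusted p = 1.28e-14). Morc1, which represses transposons in the male germ line, and Nefl, the light neurofilament chain, were higher by factors of at least 30.5 and 49.5. Fam169a and Trap1a were higher by factors of at least 58.6 and 79.5. Among the falls, Mgp, the matrix Gla protein that inhibits calcification, had 988, 80 and 568 in IP14D-1, against 240492, 199533 and 217763 in MEF, lower in IP14D-1 by at least 104-fold (adjusted p = 2.85e-07). Lrrc17, a secreted leucine-rich repeat protein, Rbms3, an RNA-binding protein, and Fibin, a secreted protein of fin bud in fish, were lower by factors of at least 95.9, 96.7 and 59.1. Ifi202b, an interferon-inducible DNA-binding protein, was lower in IP14D-1 by at least 22.8-fold, and Fat4, a giant cadherin of planar polarity, fell to below background on every IP14D-1 array (adjusted p = 2.24e-06).

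Most genes with several probe sets gave one answer. Of 9010 such genes, 5633 were called, 5501 of them with no probe set called the other way. Mtm1, a phosphoinositide phosphatase, was an exception. Its brightest probe set was higher by 5.56 log2 in IP14D-1, another was higher by 6.34 log2, and a further one was lower, at -1.95 log2. Nsl1, a kinetochore protein, had probe sets at 2.57 and -1.77 log2, both on probe sets above background in both groups. Coq8a, needed for coenzyme Q synthesis, was at least 3.18-fold higher in IP14D-1 on its brightest probe set and at least 1.25-fold lower on another. C2, a complement protease, was lower by a factor of at least 2.00 on its brightest probe set and higher by at least 1.02-fold on another. The probe sets' positions in the transcripts were not analysed here.

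The fibroblast markers left in IP14D-1 were set against the 2 other B6D2F1 stem cell lines. Comparisons with MEF would share the MEF arrays, so the lines were compared directly. Over 24 fibroblast markers the median signal was 1.85% of MEF in IP14D-1, 1.14% in CL11 and 1.15% in IP20D-3, and the summed signal was 5.21% to 5.44% of MEF in IP14D-1, 6.48% to 6.96% in CL11 and 4.82% to 5.43% in IP20D-3. Against CL11, 8 of 24 markers were higher in IP14D-1 and 2 lower (4 with median scaling), where 10.7% of all genes were higher and 11.5% lower. The share of calls that were higher was 48.1% and became 21.26% with median scaling. Against IP20D-3, 10 markers were higher in IP14D-1 and 1 lower, where 3.53% of all genes were higher and 3.87% lower. Here 47.7% of calls were higher, and 28.56% with median scaling. The count of 10 became 6 without IP14D-1 replicate 1. It became 5 with the replicate block, which was fitted on only the 6 arrays of the 2 lines, so the block and the fewer arrays cannot be told apart. The 10 markers included Pdgfra, which was below background in both lines. Markers of primitive endoderm differed in the comparison with CL11 as well, with 0 of 15 higher and 11 lower in IP14D-1 and a median of -2.98 log2. Their summed signal was 185270 to 208136 in IP14D-1, 636033 to 678002 in CL11 and 164734 to 178580 in IP20D-3, with 7, 11 and 5 of them above background. Among them, Gata6 was lower than in CL11 by a factor of at least 13.4, and Dab2, an endocytic adaptor, was lower (-3.07 ± 0.10 log2), while Sparc and Pdgfra, the 2 fibroblast markers lower than in CL11, are members of this list too. The actin 3' to 5' ratio was 1.37 ± 0.04 in IP14D-1, 1.21 ± 0.02 in CL11 and 1.28 ± 0.03 in IP20D-3 (SD, n = 3 each). The Gapdh ratio was 0.850 ± 0.004, 0.809 ± 0.016 and 0.795 ± 0.006 in the same order. The part of endoderm markers and of these ratios in the differences between lines was not tested. All 3 lines grew on MEF feeders, and the part of feeder RNA in these differences was not tested.

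The markers higher in IP14D-1 were mostly fibrillar collagens and their partners. Col1a1 had 4981, 4635 and 5299 in IP14D-1, against 391, 183 and 810 in CL11 and 138, 644 and 469 in IP20D-3. It was above background on every IP14D-1 array and on none of the others, at least 2.37-fold higher than in CL11 (adjusted p = 1.38e-04) and at least 2.37-fold higher than in IP20D-3 (adjusted p = 3.34e-04). Col3a1 was at least 3.22-fold and Col5a2 at least 3.78-fold higher than in CL11. Lox had 12444, 12081 and 13852 in IP14D-1, against 1899, 930 and 2306 in CL11 and 2379, 1743 and 2345 in IP20D-3, with no overlap. Pdgfra was below background in IP14D-1 and IP20D-3, and at least 5.75-fold lower in IP14D-1 than in CL11, where it had 12624, 12050 and 11560. Sparc was lower than in CL11 (-1.19 ± 0.10 log2), and Fn1 lower than in IP20D-3 (-0.46 ± 0.09 log2, adjusted p = 0.0043). Thy1, the fibroblast surface glycoprotein, was not called against either line, with 3331, 2980 and 4163 in IP14D-1, 3763, 3388 and 3748 in CL11 and 4242, 4059 and 6159 in IP20D-3. Of the 16 fibrillar collagens, 7 were higher than in CL11 and 6 higher than in IP20D-3, with 0 lower by this test. Of the 24 actin genes, 14 were higher than in CL11 (8 with median scaling) and 2 lower. Against IP20D-3, 8 were higher (5 with median scaling) and 0 lower (1 with median scaling). Over all genes, 10.7% were higher and 11.5% lower than in CL11, and 3.53% higher and 3.87% lower than in IP20D-3.

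**Figure D5:**
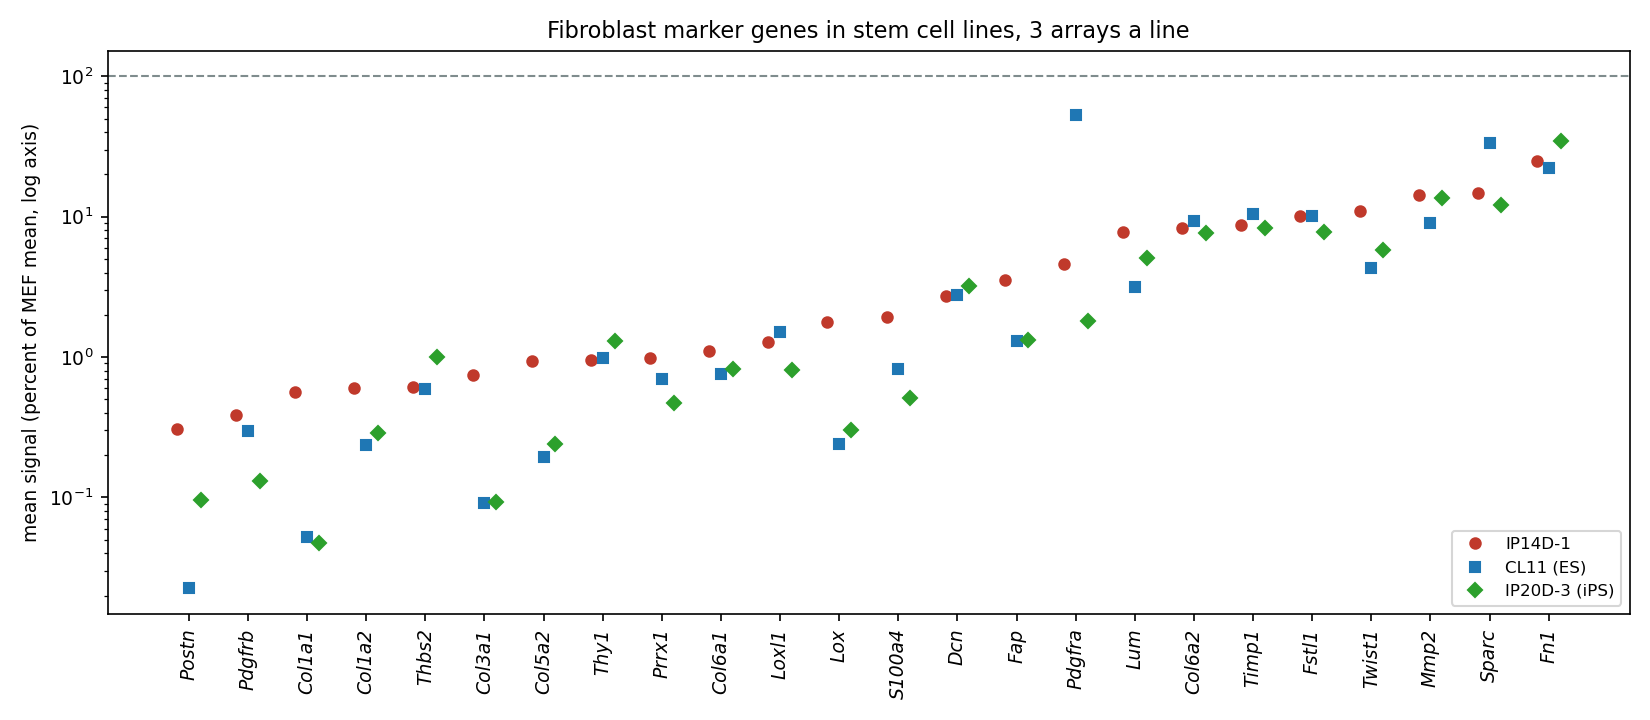
Mean signal of each of the 24 fibroblast markers as a percent of the MEF mean (vertical log axis, line at the MEF level), with 1 point per line for IP14D-1, CL11 and IP20D-3 and the genes ordered by IP14D-1. The markers run over 0.308% to 24.8% in IP14D-1, 0.023% to 53.2% in CL11, the highest being Pdgfra, and 0.047% to 34.4% in IP20D-3.

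Genes with the largest differences between the stem cell lines had different relations to MEF. Prss23, a serine protease, had 30548, 25556 and 25516 in IP14D-1, against 1398, 1116 and 1338 in CL11, 2268, 2055 and 1581 in IP20D-3 and 758351, 819910 and 805853 in MEF. It was at least 12.9-fold higher in IP14D-1 than in CL11 (adjusted p = 6.48e-09) and at least 12.6-fold higher than in IP20D-3 (adjusted p = 8.03e-08), with IP14D-1 between the other stem cell lines and MEF. Irs1, the insulin receptor substrate, had 8947, 9712 and 9090 in IP14D-1, against 116, 1006 and 194 in CL11 and 33937, 37199 and 32417 in MEF. Ccn4 and Tnc, matrix proteins bright in MEF, were at least 3.68-fold and at least 3.86-fold higher than in CL11. Cap1, an actin-monomer binding protein, had 56608, 61132 and 56604 in IP14D-1, against 3231, 2960 and 1474 in IP20D-3 and 114546, 117185 and 114457 in MEF, a difference from IP20D-3 of 4.58 ± 0.19 log2 (adjusted p = 4.52e-11). Cap1 was not called against CL11, where it had 45394, 49788 and 48483 (0.28 ± 0.19 log2, adjusted p = 0.3713). Pnma5, a retroelement-derived gene, was lower in IP14D-1 than in IP20D-3, with 5032, 3903 and 4718 in IP14D-1, against 24878, 28760 and 28703 in IP20D-3 (-2.59 ± 0.18 log2, adjusted p = 3.51e-08). Cdh2, which fell against MEF, was still higher in IP14D-1 than in CL11 (1.88 ± 0.17 log2) and IP20D-3 (0.94 ± 0.17 log2).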

How the data were processed

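Affymetrix arrays of 15 samples were deposited as a table of linear signal intensities, which the authors computed with MAS5, per the submitters' processing notes, which also name Affymetrix Expression Console. Versions and any target scaling were not given in the sources used here. Intensities of 45037 non-control probe sets were scaled to a common 2% trimmed mean, and 16 was added before log2. A group-means model on all 15 arrays was fitted with limma 3.58.1 in R 4.3.3 (eBayes with a trend), with Benjamini-Hochberg adjustment over all probe sets and calls at 0.05, and checked on simulated data. Probe sets naming 1 gene (34945; 932 named several and 9160 none, by GEO's platform annotation) gave 18193 genes, each shown by its brightest probe set over all arrays. Genes were named by rule: the largest rises and falls, the extreme, opposing and brightest uncalled members of each list, all cell type markers, and exceptions stated in the text. The comparison, lists and named genes were chosen with earlier results of these data known. Alternatives changed scaling, pseudocount, filter, arrays fitted, replicate block, trend and probe set choice, and left out each array. Batches were not given in the sources used here.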

Additional observations from a re-analysis of the deposited data

Results flagged for a closer look

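Results in which IP14D-1 differed from another pluripotent line under the same contrast with MEF are given here, each tested directly between the lines as a log2 difference and called. For genes below background in 1 line the value is the fitted one and no bound, and for Pdgfra against IP20D-3 both lines were below background. No explanation was tested.

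Among fibroblast markers, IP14D-1 minus CL11 was 3.62 for Col1a1, 3.06 for Col3a1, 2.29 for Col5a2, 1.33 for Col1a2, 3.70 for Postn, 2.98 for Lox, 1.34 for Twist1 and 0.67 for Mmp2, and was -3.58 for Pdgfra and -1.19 for Sparc. IP14D-1 minus IP20D-3 was 3.76 for Col1a1, 3.04 for Col3a1, 2.02 for Col5a2, 1.05 for Col1a2, 2.42 for Postn, 2.57 for Lox, 2.09 for S100a4, 1.71 for Pdgfra, 0.66 for Loxl1 and 0.37 for Fstl1, and was -0.46 for Fn1. Col1a1, Col3a1, Col5a2 and Lox were higher in IP14D-1 than in either other B6D2F1 line under all 10 alternatives run. Against IP20D-3, the calls of other markers did not hold under every alternative. Postn lost its call under 7 of 10 (adjusted p = 0.0655 to 0.1299), and its difference was 1.14 without IP20D-3 replicate 1. Pdgfra lost it under 8 (0.0583 to 0.3246), Loxl1 under 4 (0.0550 to 0.1414), Col1a2 under 3 (0.0506 to 0.0649), S100a4 under 3 (0.0577 to 0.0681) and Fstl1 with median scaling (0.1862).

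Among the genes with the largest differences from CL11, the values were 5.06 for Prex2, an activator of Rac, 4.92 for Irs1, 4.61 for Tnc, 4.43 for Ccn4 and 4.39 for Prss23. They were -7.27 for Srgn, a granule proteoglycan, -6.69 for Tfec, a factor related to Mitf, -5.70 for Cubn, the endocytic receptor cubilin, -5.26 for Cyp4f14, a fatty acid hydroxylase, and -4.34 for Nostrin, a trafficking protein. Cubn, a primitive endoderm marker, had 422, 628 and 1104 in IP14D-1, against 34551, 33757 and 38305 in CL11.

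Among those with the largest differences from IP20D-3, the values were 4.58 for Cap1, 4.34 for Col8a1, 4.30 for Rian, 4.26 for Tmem87a and 3.93 for Meg3, and -3.23 for Usp26, -2.90 for Il17b, -2.88 for Pla2g2e, -2.59 for Pnma5 and -2.26 for Cerk. Of these, Pla2g2e lost its call whenever 1 array of either line was left out (adjusted p = 0.0540 to 0.0887), Cerk under 6 of 10 alternatives (0.0711 to 0.1801) and Il17b without IP20D-3 replicate 1 (0.0570). Rian and Meg3 are non-coding RNAs of the same imprinted cluster. Rian had 17253, 19606 and 19808 in IP14D-1, against 537, 931 and 1648 in IP20D-3 and 24258, 25173 and 27312 in MEF. Against CL11, Cap1, Rian and Tmem87a were not called (0.28, 0.51 and 0.28 log2), nor were Usp26 and Pla2g2e (-0.24 and -0.82 log2). Col8a1 and Meg3 were higher than in CL11 as well. Pnma5, Il17b and Cerk were lower than in CL11, Cerk losing that call under 6 of 10 alternatives.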

How the results depend on the processing

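Counts against MEF changed little: 8760 (no scaling) to 9704 genes (only the 6 arrays) were called under the alternatives with all arrays of both groups, and 8773 to 8980 with 1 array left out. Of 1258 list counts against MEF under an alternative, 1234 stayed within 1.5 times the main count, and the 24 others concerned counts of 5 or fewer. Of 310 named genes called against MEF, 288 were called under every alternative run for them, as were 33 of 36 against CL11 and 16 of 27 against IP20D-3. With probe sets unique to a gene preferred, C2 turned to 1.80, Laptm5 to -0.52 and Rtel1 to -4.21 log2 (fitted values, not bounds), since another probe set then stood for the gene. Median scaling moved the median of all genes against CL11 to -0.21 log2 (0.03 in the main analysis), with 958 higher and 3548 lower, and against IP20D-3 to -0.09 log2 (0.02), with 295 higher. Leaving out 1 array gave 784 to 1050 genes called against IP20D-3, 370 to 511 higher and 402 to 539 lower, and 2948 to 3545 called against CL11. Replicate numbers showed no pairing of IP14D-1 with MEF arrays. Deviations of same-numbered arrays from their group means correlated at -0.02, -0.02 and -0.07 over 11378 genes. Pairing with the CL11 and IP20D-3 arrays was not checked in this way. With the replicate number as a block, 9360 genes were called against MEF (5159 higher, 4201 lower), 4904 against CL11 and 1533 against IP20D-3, with 5 fibroblast markers higher than in IP20D-3. The block was fitted on only the 6 arrays of each pair. Against CL11 and IP20D-3, where 6 arrays were not fitted without it, the block and the fewer arrays cannot be told apart. Genes below background in 1 group carry only bounds, and 3 arrays per group limit the precision.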

Other observations

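Over the autosomes and chromosome X, the percentage of genes higher in IP14D-1 than in MEF ran from 23.3% on chromosome 6 to 32.7% on chromosome 17. The percentage lower ran from 18.2% on chromosome 17 to 25.9% on chromosome 1. Chromosome Y had only 9 genes, of which 4 were above background in either group, with 3 higher (33.3%) and 0 lower. Chromosome X had 29.8% higher and 21.4% lower. No difference between chromosomes was tested.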
